A study of Mus musculus with 18 samples.

Results

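The genes described here encode the neuropeptides of the cerebral cortex: Sst, Vip, Npy, Cck, Crh, Cort, Penk, Tac1, Pdyn and Adcyap1. They were taken by gene name from a table of read counts of 25918 genes, and 9 of the 10 were matched and passed the filter on low counts, while Crh was not analysed here. The study measured messenger RNA in 2 tissues of BALB/c mice, cortex and a skull bone (the interparietal), after ischemic injury, the loss of blood supply that causes a stroke. The cortex groups were control, day 2 and day 6 after injury, with 3 libraries each, and the harvested piece held the ischemic area together with its border. The skull groups were control, day 2 and day 4 after injury, also with 3 libraries each. All groups shared the strain, while neither the age of the mice nor the way the ischemia was made nor what the controls underwent is given in the sources used here. The labels do not say that libraries came from separate mice, so the p-values below measure the spread between libraries, which may be technical.

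Neuropeptides are cut from larger precursor proteins, packed into dense-core granules and released from neurons alongside a fast transmitter, and they act on G protein-coupled receptors. In cortex, somatostatin (Sst), cortistatin (Cort), neuropeptide Y (Npy) and vasoactive intestinal peptide (Vip) mark classes of GABAergic interneurons, whereas cholecystokinin (Cck) is made by interneurons and by many pyramidal cells. Proenkephalin (Penk), tachykinin (Tac1) and prodynorphin (Pdyn) are also made in the cortex, but are much more abundant in the spiny projection neurons of the striatum, which lies directly under it. In a tissue library, fewer cells of a type and less RNA per cell cannot be told apart.

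Sst and Cort are related genes whose peptides share a core, and their coding ends are shown because a count table could mix reads of related genes. The last 14 codons of each, without the stop codon, are given from the GENCODE M21 transcripts, with the longest run of bases shared by the full transcripts in capitals:
Sst: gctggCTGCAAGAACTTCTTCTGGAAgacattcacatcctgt
Cort: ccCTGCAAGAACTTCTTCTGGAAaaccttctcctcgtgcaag
The shared run was 21 bases long, in transcripts of 721 and 677 bases, so that most of each transcript distinguished the 2 genes. Sst lies at chr16:23889573-23890958 on the minus strand and Cort at chr4:149125034-149126763 on the minus strand (mm10).

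Somatostatin is the textbook example of a gene driven by cyclic AMP through CREB, the factor that binds the palindrome TGACGTCA or its shorter forms. The promoters of 8 of the 9 measured members were held in the RefSeq table (GRCm38.p6), and the 250 bases before each start were searched on both strands for TGACGTCA, for the TGACGTC it contains and for the CGTCA that both contain. TGACGTCA was found in Sst alone, beginning 48 bases before the start, and in 1.55% of 32851 promoters of that length. TGACGTC was found in Sst, Vip and Adcyap1 (2.78% of promoters), and CGTCA in 6 members, with Cck, Cort and Tac1 added (17.8% of promoters). The last 150 bases before the start of 4 members that differ in these letters are shown, with the longest match in capitals:
Sst, chr16:23890845-23890994, minus strand: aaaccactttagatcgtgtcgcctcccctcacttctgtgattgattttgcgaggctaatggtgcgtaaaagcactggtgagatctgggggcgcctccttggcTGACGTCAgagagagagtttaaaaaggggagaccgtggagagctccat
Vip, chr10:5639068-5639217, plus strand: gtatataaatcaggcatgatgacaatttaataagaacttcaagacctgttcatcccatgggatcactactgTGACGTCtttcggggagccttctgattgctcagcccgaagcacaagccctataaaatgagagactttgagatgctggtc
Adcyap1, chr17:93198867-93199016, plus strand: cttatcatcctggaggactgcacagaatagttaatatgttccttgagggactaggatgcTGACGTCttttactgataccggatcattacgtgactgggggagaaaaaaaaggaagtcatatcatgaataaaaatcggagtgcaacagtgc
Cck, chr9:121495695-121495844, minus strand: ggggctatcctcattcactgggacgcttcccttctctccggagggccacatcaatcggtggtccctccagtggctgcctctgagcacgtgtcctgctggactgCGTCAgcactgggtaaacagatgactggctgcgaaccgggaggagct
The match began 79 bases before the start in Vip, 91 before the first start of Adcyap1 and 47 before that of Cck. Letters in a promoter are a description and show no binding.

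Total counts were 23673255 to 27654269 in control libraries, 17199036 to 18476057 at day 2 and 13005050 to 22236424 at day 6. Expression is given as CPM, read counts relative to the library total after TMM scaling. Transcripts of cortical excitatory neurons, such as Slc17a7 and Tbr1, were abundant in every library, and summed to 4572 to 5010 CPM over 9 genes in the controls. Cortex pieces also differed in how much striatal RNA they held. The summed level of 10 striatal genes (12 were listed) was 392, 895 and 1117 CPM in control replicates 1 to 3, then 377, 309 and 1995 CPM at day 2, then 321, 275 and 289 CPM at day 6. Control replicates 2 and 3 and day 2 replicate 3 therefore stood apart from the other 6 libraries. Adora2a, the adenosine receptor of enkephalin-producing striatal neurons, was at 23.7, 30.4 and 64.7 CPM in those 3 libraries and at 1.33 to 4.98 CPM in the other 6. Six3, a transcription factor of the same neurons, had 89, 73 and 164 counts in those 3 libraries and 0 to 14 counts in the other 6. Results that rest on these libraries are given with and without them.

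**Figure D1:**
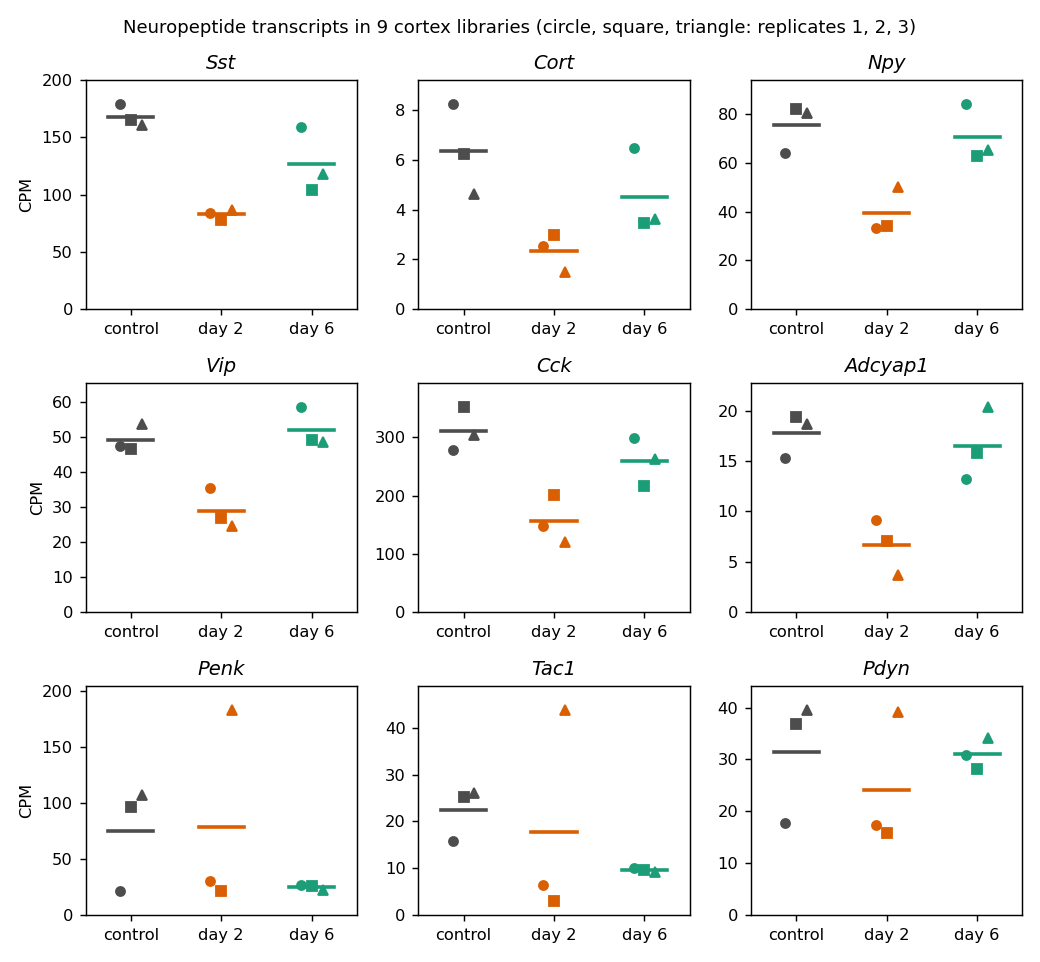
Level of each of 9 neuropeptide genes (CPM, linear axes from 0) in the control, day 2 and day 6 cortex libraries, with 1 symbol per replicate and a bar at the mean of 3. In Sst, Cort, Npy, Vip, Cck and Adcyap1 the 3 day 2 libraries lie below all 3 controls. The share of all genes separated in this way was not computed. Penk, Tac1 and Pdyn are highest in control replicates 2 and 3 and day 2 replicate 3.

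Of the 9 measured members, 6 were lower at day 2 than in control: Sst, Cort, Npy, Vip, Cck and Adcyap1. The background was 9.99% of 18151 genes called lower in the same fit (edgeR quasi-likelihood test, two-sided, Benjamini-Hochberg adjusted p below 0.05). The median log2 change of the 9 members was -0.95, beside 0.00035 for all genes tested. The other 3 members, Penk, Tac1 and Pdyn, were not called in either direction. Where groups are said below not to overlap, the share of all genes separated in this way was not computed.

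Sst, the marker of dendrite-targeting interneurons, was at 179, 165 and 161 CPM in the controls, 84.3, 77.9 and 86.5 CPM at day 2, and 159, 104 and 118 CPM at day 6. The day 2 libraries lay close together at 49.3% of the control mean, and no library of one group reached the other. The log2 change at day 2 was -1.02 ± 0.13 (SE, n = 3 per group, edgeR adjusted p = 9.84e-05). Cort, made by some of the same interneurons and by parvalbumin cells, was far less abundant, at 8.24, 6.24 and 4.62 CPM in the controls and 2.55, 2.97 and 1.51 CPM at day 2. Its change was -1.44 ± 0.33 on the log2 scale (edgeR adjusted p = 0.00598), and again the groups did not overlap.

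Npy, an inhibitory peptide of neurogliaform and somatostatin cells, was at 64.1, 82.0 and 80.5 CPM in the controls and 33.4, 34.3 and 49.9 CPM at day 2. All day 2 libraries were below the lowest control, at a mean of 51.9% of control. The log2 change was -0.95 ± 0.17 (edgeR adjusted p = 0.00161). Vip, the marker of interneurons that inhibit other interneurons, was at 47.4, 46.4 and 53.7 CPM in the controls and 35.5, 26.7 and 24.4 CPM at day 2. Its mean at day 2 was 58.7% of control, and its log2 change was -0.77 ± 0.14 (edgeR adjusted p = 0.00107). Among the 6 called members, Vip had the smallest fitted change.

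Cck was the most abundant peptide transcript, at 278, 352 and 305 CPM in the controls and 148, 201 and 120 CPM at day 2. The highest day 2 library remained below the lowest control, and the log2 change was -0.997 ± 0.18 (edgeR adjusted p = 0.00225). Adcyap1 encodes PACAP, a peptide that raises cyclic AMP and is known for protecting neurons in ischemia models. It was at 15.3, 19.3 and 18.6 CPM in the controls and 9.13, 7.07 and 3.66 CPM at day 2, with a log2 change of -1.42 ± 0.27 (edgeR adjusted p = 0.00235). The lowest level was in day 2 replicate 3, the library with the most striatal RNA, and so were the lowest levels of Cck, Cort and Vip. The part of tissue composition in these low values was not tested beyond the fits given below.

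**Figure D2:**
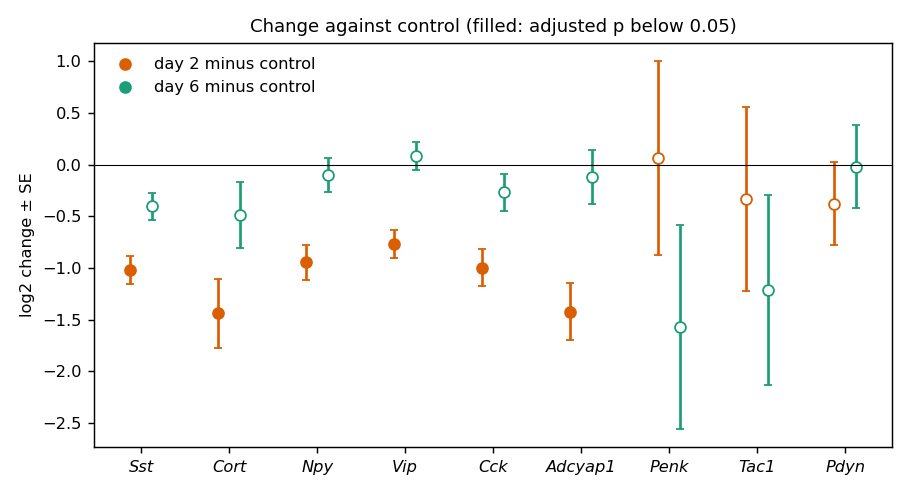
Log2 change of each member against control at day 2 and at day 6, with bars of ± 1 SE from the edgeR fit of 9 libraries and filled symbols for an adjusted p below 0.05. The 6 filled symbols at day 2 lie between -1.44 and -0.77, no symbol at day 6 is filled, and the bars of Penk and Tac1 are the widest.

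At day 6, none of the 9 members was called against control, beside a background of 10.3% of all genes tested called in either direction. The edgeR fit gave 1 member, Sst, an unadjusted p below 0.05. DESeq2 called 1 member and limma voom called 0. The member median was -0.27 on the log2 scale, against -0.018 for all genes.

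Sst remained below control in every day 6 library, at a mean of 75.6% of control, with a log2 change of -0.40 ± 0.13 (edgeR adjusted p = 0.0667). Its size depended on which day 6 library was kept. Day 6 replicate 1 had 159 CPM, just under the lowest control, and without it the change was -0.60 and was called (edgeR adjusted p = 0.00226). Without day 6 replicate 2 it was -0.28 and without replicate 3 -0.36 (edgeR adjusted p = 0.266 and 0.235), and with the neuronal scaling described below it was -0.16 (edgeR adjusted p = 0.552). DESeq2 called the gene with all libraries (adjusted p = 0.0493). Vip was at 58.4, 49.0 and 48.4 CPM at day 6 and overlapped the controls, with a log2 difference of 0.08 ± 0.14 (edgeR adjusted p = 0.772). Npy at 84.0, 62.8 and 65.1 CPM and Adcyap1 at 13.2, 15.8 and 20.3 CPM also spanned the control range. Their log2 differences were -0.10 ± 0.17 and -0.12 ± 0.26. Cck at 299, 217 and 263 CPM and Cort at 6.48, 3.48 and 3.63 CPM reached the control range with their highest libraries, with log2 differences of -0.27 ± 0.18 and -0.48 ± 0.32.

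Between day 2 and day 6, 5 of the 9 members rose, beside 5.3% of all genes tested called higher. Because both days share the controls, this comparison of the injured groups is also the test of whether the day 2 and day 6 differences from control are unequal. Adcyap1 rose the most, by 1.31 ± 0.28 on the log2 scale (edgeR adjusted p = 0.0103). Npy and Vip each rose by 0.85 with SEs of 0.17 and 0.14 (edgeR adjusted p = 0.00837 and 0.00214). Sst rose by 0.62 ± 0.13 (edgeR adjusted p = 0.00903) and Cck by 0.73 ± 0.18 (edgeR adjusted p = 0.0254). Cort differed by 0.95 ± 0.34 and was not called (edgeR adjusted p = 0.0854), although its day 6 libraries were all above its day 2 libraries, and DESeq2 called it (adjusted p = 0.0432). The call of Cck was lost without day 2 replicate 1 or 3 or without day 6 replicate 1 or 3, with edgeR adjusted p-values of 0.102, 0.0543, 0.0843 and 0.0845. Without day 6 replicate 3, Adcyap1 was not called either (edgeR adjusted p = 0.0518), which left 3 members.

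Penk, Tac1 and Pdyn were highest in the libraries rich in striatal transcripts. Penk, the enkephalin precursor, was at 21.4, 96.2 and 108 CPM in the controls, 30.4, 21.7 and 183 CPM at day 2, and 27.0, 26.2 and 22.4 CPM at day 6. Its 3 high values were those of the 3 libraries rich in striatal transcripts, and the remaining 6 libraries of all groups lay between 21.4 and 30.4 CPM. Per 100 CPM of summed striatal transcripts, Penk was at 5.45, 10.8 and 9.64 in the controls, 8.08, 7.01 and 9.19 at day 2, and 8.41, 9.53 and 7.77 at day 6. On this ratio the striatum-rich libraries overlapped the day 6 libraries, but still lay above the other control and day 2 libraries. The day 2 log2 difference of Penk was 0.06 ± 0.94 (edgeR adjusted p = 0.973), and that at day 6 was -1.57 ± 0.98 (edgeR adjusted p = 0.403). With the striatal level as a covariate of the fit these became -0.03 ± 0.17 and 0.28 ± 0.21, neither called. The day 6 striatal sums (275 to 321 CPM) lay below all control sums (392 to 1117 CPM). Differences between day 6 and control with this covariate, here and below, therefore reach beyond the striatal levels that both groups share. Penk overlaps A830012C17Rik on the opposite strand, and how the counting treated strands is not given in these sources, so their reads may be mixed.

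**Figure D3:**
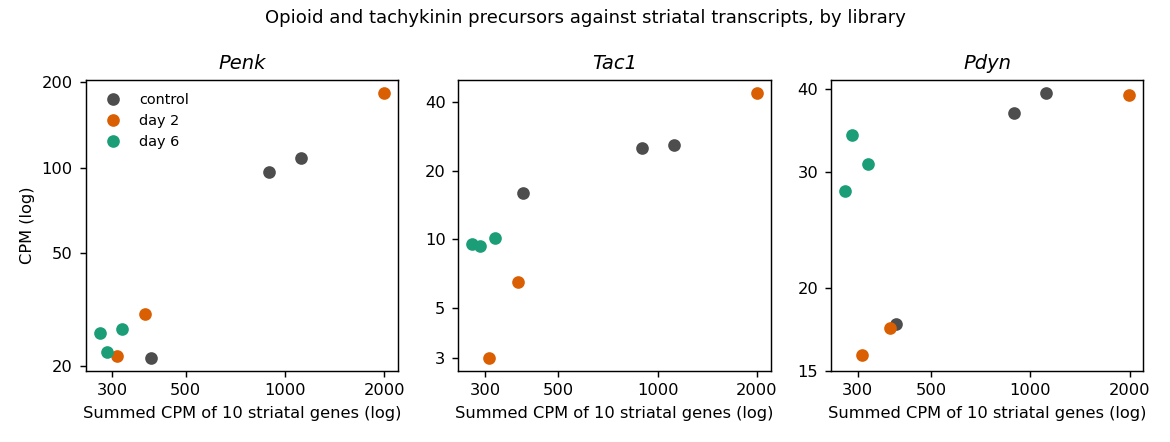
CPM of Penk, Tac1 and Pdyn (log axis) against the summed CPM of 10 striatal genes (log axis), 1 point for each of 9 cortex libraries, coloured by group. The 3 points to the right, at 895 summed CPM and more, are control replicates 2 and 3 and day 2 replicate 3; at the left, Tac1 is lowest in the day 2 points and Pdyn is highest in the day 6 points.

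Tac1, the precursor of substance P and neurokinin A, was at 15.9, 25.2 and 26.0 CPM in the controls, 6.48, 3.02 and 43.8 CPM at day 2, and 10.1, 9.52 and 9.28 CPM at day 6. Day 2 therefore held both the highest library and the lowest, and the log2 difference from control was -0.33 ± 0.89 (edgeR adjusted p = 0.837). With the striatal level as a covariate, the Tac1 difference at day 2 was -0.88 ± 0.25 and was called (edgeR adjusted p = 0.0234). In the 6 libraries low in striatal transcripts it was -1.74 ± 0.37 (edgeR adjusted p = 0.0159), but there 1 control library stands for its group and is assumed to vary like the others. Leaving out day 2 replicate 3 alone gave -2.24 (edgeR adjusted p = 3.39e-04). At day 6 all 3 Tac1 levels were below all controls, with a log2 difference of -1.21 ± 0.92 that was not called (edgeR adjusted p = 0.496). It was called at the same size when day 2 replicate 3 was left out (edgeR adjusted p = 0.00854) or the day 2 group was kept out of the fit (edgeR adjusted p = 0.00159). With the striatal covariate the day 6 difference was 0.21 ± 0.29, in the opposite direction and not called. Between day 2 and day 6, the Tac1 difference of -0.88 ± 0.93 (edgeR adjusted p = 0.610) turned to 1.09 ± 0.32 with that covariate and was called (edgeR adjusted p = 0.0482).

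Pdyn, the precursor of the dynorphins, was at 17.7, 36.9 and 39.5 CPM in the controls, 17.4, 15.9 and 39.2 CPM at day 2, and 30.9, 28.1 and 34.1 CPM at day 6. The day 6 libraries lay above the other 3 libraries low in striatal transcripts, and below the striatum-rich ones. Per 100 CPM of striatal transcripts, Pdyn was at 9.61, 10.2 and 11.8 at day 6, against 1.96 to 5.14 in the other 6 libraries. Where the striatal sum is low, this ratio is raised unless Pdyn is lower with it. In the fit without a covariate the day 6 difference was -0.02 ± 0.40 (edgeR adjusted p = 0.983). With the striatal covariate Pdyn was 0.77 ± 0.17 higher at day 6 than in control (edgeR adjusted p = 0.0119). It was 1.07 ± 0.16 higher than at day 2 (edgeR adjusted p = 8.39e-04). The adjusted difference from control again reaches beyond the striatal levels that both groups share. In the 6 libraries low in striatal transcripts, Pdyn was 0.89 ± 0.17 higher at day 6 than at day 2 (edgeR adjusted p = 0.00713) and 0.81 ± 0.21 higher than in the 1 control, which was not called (edgeR adjusted p = 0.0775). Summed levels of 6 dentate gyrus and hippocampal markers, another place where dynorphin is made, were 82.6 to 90.2 CPM at day 6. They were 121 to 160 CPM at day 2 and 90.5 to 193 CPM in control. Most of these sums came from Wfs1, with means of 63.9 CPM at day 6, 95.4 CPM at day 2 and 94.4 CPM in control. The part of hippocampal tissue in the Pdyn levels was not tested.

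The striatal covariate left the 6 members lower at day 2 called, and with Tac1 made 7. In the 6 libraries low in striatal transcripts, Sst at -1.14 ± 0.21 and Npy at -0.92 ± 0.19 were still called at day 2 (edgeR adjusted p = 0.00807 and 0.0141). Cort, Vip, Cck and Adcyap1 had log2 differences of -1.58, -0.61, -0.68 and -0.92 there and were not called (edgeR adjusted p = 0.0511, 0.118, 0.0874 and 0.104). Sst, Npy, Vip and Adcyap1 still rose from day 2 to day 6 in those libraries, while Cck had an edgeR adjusted p of 0.0538. With the striatal covariate and all libraries, Cck was not called between the days either (0.61 ± 0.18, edgeR adjusted p = 0.0566).

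Transcripts that all neurons share were lower at day 2 as well, so the members were also measured against them. Of 10 pan-neuronal genes 7 fell, with a list median of -0.48 on the log2 scale and summed levels of 8143 to 10381 CPM in control, 5656 to 7109 CPM at day 2 and 7555 to 8207 CPM at day 6. Scaling each library to the summed counts of these 10 genes moved the median of all genes by 0.52 at day 2. It left 117 of 18151 genes called lower at day 2, against 1814 in the fit as designed. Under that scaling, Sst at -0.51 ± 0.16, Npy at -0.42 ± 0.16 and Adcyap1 at -0.89 ± 0.29 were called at day 2 (edgeR adjusted p = 0.0166, 0.0473 and 0.0207). Cort at -0.93 ± 0.38, Cck at -0.44 ± 0.21 and Vip at -0.25 ± 0.17 kept the direction and were not called (edgeR adjusted p = 0.0555, 0.108 and 0.224). From day 2 to day 6, Vip, Npy and Adcyap1 were called higher under that scaling, with log2 differences of 0.59, 0.59 and 1.05.

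**Figure D4:**
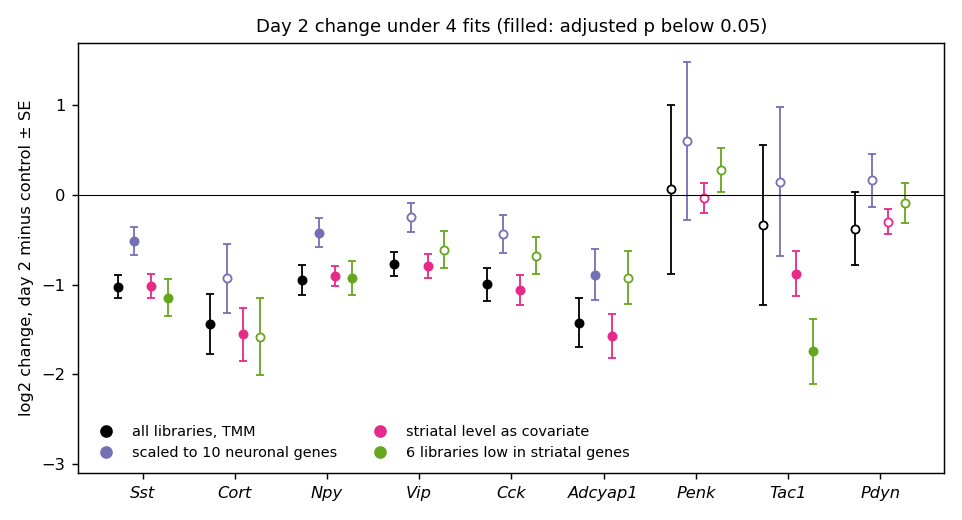
Log2 difference between day 2 and control for each member under 4 fits, with bars of ± 1 SE and filled symbols for an adjusted p below 0.05. Sst and Npy are filled in all 4 fits, Cort, Vip, Cck and Adcyap1 lie below 0 in all 4, and the bars of Penk and Tac1 shrink once the striatal level enters the fit.

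Other interneuron transcripts gave a reference for the peptide genes. Of 14 tested genes of inhibitory neurons that encode no peptide, 5 fell at day 2 and none rose, with a list median of -0.45. Gad1, which makes GABA, was at 397, 417 and 491 CPM in the controls and 278, 184 and 323 CPM at day 2 (log2 change -0.73 ± 0.17, edgeR adjusted p = 0.00696). Dlx1, a transcription factor of interneurons, fell by 0.87 on the log2 scale (edgeR adjusted p = 9.39e-05), and Lhx6 fell by 0.52 (edgeR adjusted p = 0.0103). Of 9 excitatory genes 5 fell, with a median of -0.48. Whether Sst, Cort or Npy fell further than these lists was not tested. Over the same days the 5 myeloid markers rose, from 56.0 to 63.7 summed CPM in control to 354 to 558 CPM at day 2 and 673 to 2160 CPM at day 6, and 3 of 5 astrocyte markers were higher at day 2, led by Gfap (log2 change 3.87 ± 0.22, edgeR adjusted p = 1.78e-06). Of 8 meningeal fibroblast markers 2 were higher at day 2 and 4 at day 6. Their summed level was 62.7 to 151 CPM in control, 206 to 467 CPM at day 2 and 416 to 1713 CPM at day 6. The background for these lists was 2671 of 18151 genes called higher than control at day 2. At day 6 it was 1440 called higher and 432 lower. Of 5 genes listed as thalamic, Prkcd was higher at day 2 (log2 change 1.98 ± 0.40, edgeR adjusted p = 0.00780) and the other 4 were not called. At day 6 the list went both ways. Prkcd was higher (1.74 ± 0.40, edgeR adjusted p = 0.0282) and Slc17a6 lower (-0.58 ± 0.15, edgeR adjusted p = 0.0243). The part of these other tissues and cells in the lower neuronal levels was not tested beyond the neuronal scaling.

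Genes for the processing and packing of peptides were also lower at day 2. Of 17 genes for peptide processing and granules, 12 were lower at day 2 and none higher, with a median of -0.56. Pcsk1, the convertase that makes the first cuts in many precursors, was at 57.3, 59.0 and 66.5 CPM in the controls and 28.1, 19.1 and 29.4 CPM at day 2, a log2 change of -1.26 ± 0.14 (edgeR adjusted p = 3.47e-05). The granule proteins Vgf, Scg2 and Chga fell by 1.03, 0.86 and 0.77 on the log2 scale, with no overlap between groups. At day 6, 1 of the 17 was lower, Pcsk1 at -0.46 ± 0.14 (edgeR adjusted p = 0.0474), and from day 2 to day 6 6 of the 17 rose. Relative to the pan-neuronal genes, 3 of the 17 were lower at day 2.

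Of 22 listed receptor genes 16 were tested, and 4 were lower at day 2 and none higher, with a median of -0.31. Cckbr, the main cholecystokinin receptor of cortex, was at 55.2, 63.8 and 65.1 CPM in the controls, 29.1, 29.8 and 26.4 CPM at day 2, and 67.2, 54.8 and 62.2 CPM at day 6. Its log2 change was -1.11 ± 0.11 at day 2 (edgeR adjusted p = 1.13e-05) and 0.00 ± 0.11 at day 6, where it overlapped the controls. Crhr1, the receptor of the corticotropin-releasing hormone, fell by 0.88 and Npy1r by 0.80 (edgeR adjusted p = 2.31e-04 and 0.00116). Sstr3, a somatostatin receptor of neuronal cilia, fell by 0.53 (edgeR adjusted p = 0.0142). At day 6 none of the 16 receptors was called in the edgeR fit, where DESeq2 called 2, and from day 2 to day 6 Cckbr, Crhr1 and Oprd1 rose by 1.11, 0.99 and 0.55. Sstr5 and Oprk1 had the widest errors of the list at day 6 and were not called.

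**Figure D5:**
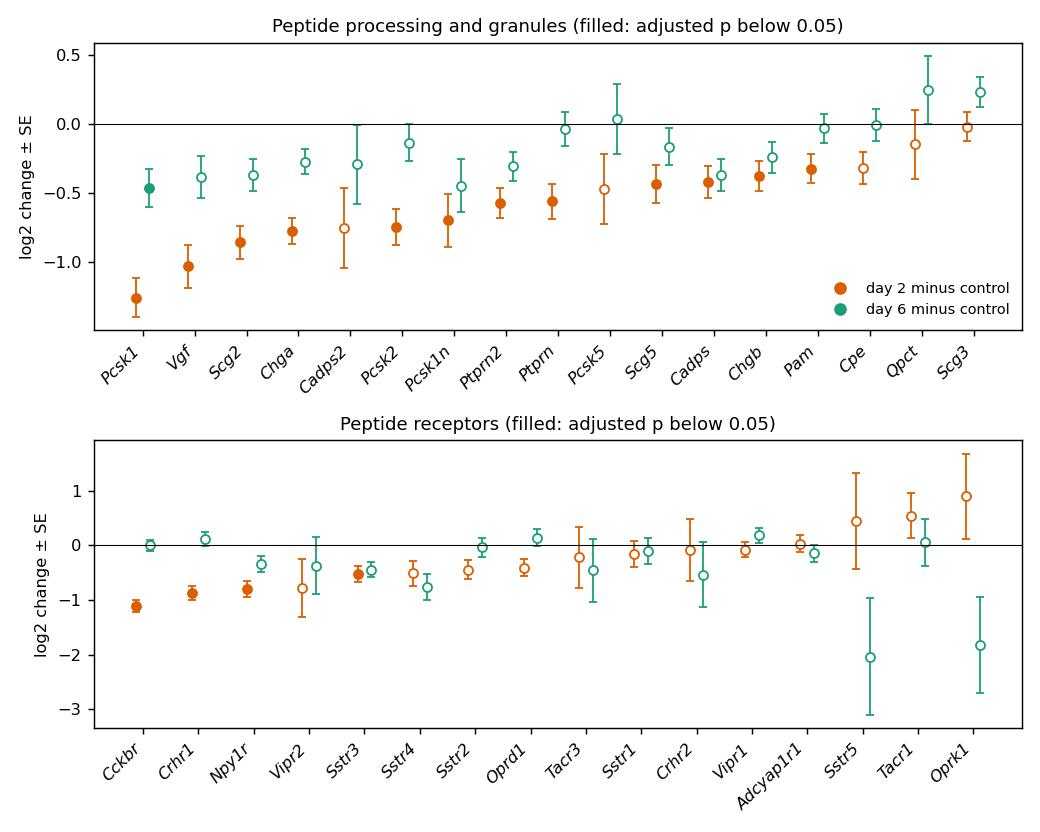
Log2 change at day 2 and day 6 against control for 17 genes of peptide processing and granules (top) and 16 tested receptor genes (bottom), with bars of ± 1 SE and filled symbols for an adjusted p below 0.05. In the upper panel 12 symbols are filled at day 2 and 1, Pcsk1, at day 6, and in the lower panel Cckbr, Crhr1, Npy1r and Sstr3 are filled at day 2 alone.

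Other peptide precursors were called in both directions. Of 11 tested, Pnoc, the nociceptin precursor of interneurons, and Pthlh, a peptide of parathyroid hormone type, were lower at day 2, with log2 changes of -1.22 ± 0.28 and -1.15 ± 0.37 (edgeR adjusted p = 0.00523 and 0.0357). Adm, the vasodilator adrenomedullin, was higher, at 4.87, 8.50 and 6.09 CPM against 1.26, 1.19 and 1.29 CPM in control (log2 change 2.38 ± 0.31, edgeR adjusted p = 1.06e-04). The list median was -0.19. Of all 18151 genes tested, 1814 were called lower and 2671 higher at day 2. Whether this list differed from that background was not tested.

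Genes induced by neuronal activity, several of which are targets of CREB, were also lower at day 2. Of 10, 8 were lower at day 2 and none higher, with a median of -0.96, and 2 were lower at day 6, Nr4a1 and Arc. Npas4 was at 41.7, 29.1 and 30.9 CPM in the controls, 13.2, 7.43 and 7.11 CPM at day 2 and 26.3, 19.5 and 20.1 CPM at day 6, a log2 change of -1.87 ± 0.24 at day 2 (edgeR adjusted p = 1.69e-04). From day 2 to day 6, 5 of the 10 rose. Relative to the pan-neuronal genes 5 of the 10 were lower at day 2.

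Per kilobase of annotated exon, Cck and Sst led the members in control, at 238.9 ± 28.5 and 233.3 ± 13.3 CPM per kb (SD, n = 3), and their ranges overlapped. Npy followed at 133.5 ± 17.6, and was separated from Sst above it and from Penk below it, which was at 46.0 ± 28.7. Vip at 14.5, Pdyn at 10.9, Cort at 9.41, Tac1 at 6.58 and Adcyap1 at 4.70 CPM per kb each overlapped the next in that order. At day 2 the first 4 places were held by the same genes, with Cck at 119.7 and Sst at 115.0 CPM per kb. Tac1 was lowest at day 6, at 2.84 ± 0.13 CPM per kb.

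The genes most like each member were found by Pearson's r of log2 CPM over the 9 libraries, among 13996 candidates. Sst was nearest to Ndufv1 and Uqcrc1, subunits of the respiratory chain, and to Trim9, with r of 0.990, 0.990 and 0.984. Cck was nearest to Gng3, Sh3glb2 and Lrfn1, Vip to Vopp1, Rgs7 and Nptxr, Npy to Plpbp, Ccl27a and Akap1, Cort to Bex1, Ssbp3 and Ddx25, while Myrip and Zfp821 were among the nearest to Adcyap1. Penk was nearest to Adora2a of the striatal list (r = 0.986), then to Strip2 and Dach1, Tac1 to Kcnab1, Plppr1 and Slc5a7, and Pdyn to Dclk3, Snx19 and Mast4. Among the members themselves, r between Sst and Cort was 0.889 between Penk and Tac1 0.832, between Npy and Pdyn 0.699 and between Sst and Penk 0.063. These values share 9 libraries, their groups and their depth, and are a description.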

How the data were processed

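Total RNA was selected for polyadenylated transcripts and sequenced in paired ends, per the labels' protocols, and HISAT2 2.1.0 and the mm10 build are named in the submitters' processing notes. Which program counted the reads, on which annotation and with what treatment of strands is not given in the sources used here. In all, the authors deposited 1 table of raw read counts per gene for all libraries, with 26783 lines that held 25918 gene names once 865 identical copies were removed. Every column was mapped to a sample by its title.

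The 9 cortex libraries were fitted together with edgeR 4.0.16 (filterByExpr, TMM factors, robust quasi-likelihood fit, two-sided test) in R 4.3.3. The Benjamini-Hochberg adjustment ran over all 18151 genes tested, and a gene was called at an adjusted p below 0.05. SEs are the log2 change divided by the square root of the F statistic. Log2 CPM used a prior count of 0.5. The fit was also run on counts simulated from the same kind of model, with changes placed at day 2 alone. Uneven striatal content was not simulated, so that run cannot show how the fit handles it. Errors are the spread between libraries, which includes counting error. Alternatives were DESeq2 1.42.0, voom of limma 3.58.1, other scaling factors and filters, library sizes without haemoglobin genes and the 20 most abundant genes, scaling to 10 pan-neuronal genes, the summed striatal level as a covariate, the replicate number as a term, and leaving out libraries. The fit without the 3 striatum-rich libraries was chosen after seeing the data. The same-numbered libraries of different groups were not treated as pairs. No 2 libraries of a group agreed within sampling noise, with a chi-square per gene of at least 9.31.

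The members, the gene lists and the tests were chosen with earlier results of these data known. All members were named in every comparison. Of each list, at most the 4 genes with the smallest adjusted p in each direction were to be named, together with the striatal genes and the 3 genes most like each member (mean of at least 1 CPM, unnamed loci skipped). Oprk1, Sstr5, Wfs1, Cd3g, Cd8a and Ncr1 were named after their values were seen. Some genes that this rule names are not reported here. Positions and exon lengths came from GENCODE M21, and promoters from RefSeq.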

Additional observations from a re-analysis of the deposited data

Results flagged for a closer look

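The difference from control was unequal at day 2 and day 6 for 5 members, by the edgeR test of day 6 against day 2 that is given above. The day 6 response minus the day 2 response was 0.73 for Cck, 1.31 for Adcyap1, 0.85 for Npy, 0.62 for Sst and 0.85 for Vip on the log2 scale. All 5 had every day 6 library above every day 2 library, but the same libraries had picked them out. The share of all genes separated in this way was not computed.

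In the skull libraries, which enter no comparison above, the 9 members were searched at day 2 and day 4 for levels above all controls. Levels below all controls were not searched. Cort at day 4 alone was found. Its lowest level there was 1.86 CPM and its highest 2.18 CPM, and the highest of the 3 control bones was 1.75 CPM. Cort in bone was at these few CPM in all 3 groups, with 29, 23 and 28 counts at day 4 and 12, 26 and 25 counts in control. The difference was not tested, and the share of all genes separated in this way was not computed.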

How the results depend on the processing

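The fit of the 6 libraries low in striatal transcripts holds 1 control and is left aside for the day 2 count. In the other settings tried, 6 members were lower at day 2, except 7 with the striatal covariate and 3 with neuronal scaling. The count ranged from 6 to 7 when each library was left out in turn. Of 18151 genes tested, 1814 were called lower at day 2 in the fit as designed, 1968 with the striatal covariate and 117 with neuronal scaling. At day 6 the count of 0 became 1 with DESeq2 (Sst), the replicate block (Sst), the compared groups alone (Tac1) and the striatal covariate (Pdyn), and ranged from 0 to 1 when each library was left out. The count of 5 higher at day 6 than at day 2 became 3 with neuronal scaling. It was 6 with DESeq2 and the replicate block (both with Cort, adjusted p = 0.0432 and 0.0418). With the striatal covariate it was 6 (without Cck, with Pdyn and Tac1), and it ranged from 3 to 5 when each library was left out. Of all genes tested, 962 were called higher between these days in the fit as designed and 205 with neuronal scaling. DESeq2 called 1399 higher, the replicate block 1083 and the striatal covariate 950. The replicate block (6 members lower at day 2) rests on numbers alone: deviations of same-numbered libraries correlated by -0.042 to 0.200, below 0.1 in 7 of 9 pairs.

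Directions turned in 11 differences, none of them called in the fit as designed. With the striatal covariate, 2 of them were called: Pdyn at day 6 and Tac1 between the days. Neuronal scaling gave 0.16 for Adcyap1, 0.17 for Npy and 0.29 for Pdyn at day 6, and 0.16 for Pdyn and 0.15 for Tac1 at day 2. The striatal covariate gave 0.21 for Npy, 0.77 for Pdyn, 0.28 for Penk, 0.21 for Tac1 and -0.0065 for Vip at day 6, -0.035 for Penk at day 2, and 0.31 for Penk and 1.09 for Tac1 between the days. The 6 libraries low in striatal transcripts gave 0.095 for Adcyap1, 0.14 for Npy, 0.81 for Pdyn and 0.24 for Penk at day 6, and 1.03 for Tac1 between the days. For Pdyn at day 6, no filter gave 0.0013, voom 0.042, the replicate block 0.053 and trimmed library sizes 0.0066. For Penk at day 2, voom gave -0.30 and the block -0.19, and voom gave 0.042 for Tac1 between the days. Leaving out each library gave -0.29 to 0.019 for Adcyap1, -0.28 to 0.18 for Pdyn and -0.013 to 0.15 for Vip at day 6, -1.53 to 0.52 for Penk and -2.24 to 0.18 for Tac1 at day 2, and -1.37 to 1.03 for Tac1 between the days. Beyond scaling and covariate, which by construction change the reference, the cause was not tested.

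Of the processing list, 12 genes lower at day 2 became 3 with neuronal scaling and 4 in the 6 libraries, and of the receptors 4 became 1 and 2. Of the other neuropeptides 2 lower became 0 with neuronal scaling, 1 with voom and 1 in the 6 libraries. Of the activity genes 8 became 5 with neuronal scaling, and of the inhibitory and excitatory lists 5 and 5 became 0 and 0. Of the pan-neuronal list 7 became 1 in the 6 libraries. At day 6 the 1 processing gene ranged from 0 to 5 when each library was left out.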

Other observations

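Some of the same transcripts were measured in the interparietal bone. Penk was at 23.4 to 47.8 CPM in control bone, 21.9 to 27.5 CPM at day 2 and 22.3 to 32.8 CPM at day 4. The cortex libraries low in striatal transcripts were at 21.4 to 30.4 CPM. Control bone replicates 2 and 3 (47.8 and 33.3 CPM) and day 4 replicate 1 (32.8 CPM) lay above that range. Bone and cortex were scaled separately, so their CPM are not on one scale. Tac1, which sensory fibres also carry, was at 9.47 to 12.2 CPM in the 3 control bones, 0.542 to 1.05 CPM at day 2 and 0.156 to 1.92 CPM at day 4. Npy was at 5.94 to 10.1, 4.60 to 12.9 and 6.42 to 18.9 CPM, so that its groups overlapped. Control bones 1 to 3 were uneven, with Cck at 24.0, 1.89 and 14.7 CPM, Sst at 4.83, 0.675 and 2.66 CPM and Vip at 6.92, 0 and 4.23 CPM. In injured bones Cck was at 0.203 to 2.40 CPM, Sst at 0 to 0.263 CPM and Vip at 0 to 0.256 CPM. Control replicate 2 was thus the lowest control for all 3 genes, and its Cck lay within the injured range. These bone values are descriptions and were not tested here.

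Cd4, listed with the T and NK cell markers, was at 5.76, 8.99 and 17.8 CPM in the 3 cortex libraries rich in striatal transcripts. In the other 6 it was at 0.256 to 1.94 CPM. Cd4 was the single gene of that list that passed the filter on low counts in cortex. In the same 3 libraries, Cd3g had 0, 4 and 2 counts, Cd8a 1, 0 and 0, and Ncr1 0, 0 and 7. In the other 6 libraries these genes had 0 to 11, 0 to 3 and 0 to 1 counts. Which cells made the Cd4 transcripts was not tested.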
